A study of Mus musculus with 16 samples.

Results

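Keratins are the intermediate filament proteins of epithelia, and 6 of them are described here in 4 cell populations sorted from mouse fat: Krt7, Krt8, Krt18 and Krt19, known from simple epithelia, and Krt5 and Krt14, known from the basal layer of stratified epithelia. They were taken by symbol, and all 6 were found among the 27179 rows of the table. The cells were sorted by flow cytometry as Pdgfrb+ from epididymal white fat taken at postnatal day 7 from C57BL/6 mice, so all populations carry this receptor of mural and stromal cells. The populations were mesothelial-like cells (MLCs), smooth muscle cells (SMCs), fibro-inflammatory progenitors (FIPs) and adipocyte precursor cells (APCs), with 4 libraries of bulk RNA-seq each. The labels name no treatment or transgene, and they do not say whether the 4 libraries came from separate animals or sorts, so a p-value here weighs a difference against the spread of the libraries, part or all of which may be technical.

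Keratin filaments are built from dimers of a type I chain and a type II chain, so a cell needs members of both types. Krt8 (type II) and Krt18 (type I) form the basic filament of simple epithelia, to which Krt7 (type II) and Krt19 (type I) are added in ducts and in mesothelium, while Krt5 (type II) and Krt14 (type I) form the filament of basal cells. Mesothelium, the sheet of flat cells that covers the fat pad and lines the body cavity, is of mesodermal origin and yet carries simple epithelial keratins. Filaments are tied to desmosomes through desmoplakin, the product of Dsp, and its relatives.

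The members lie in the clusters that hold the keratin genes of the mouse. On GRCm38 (GENCODE M21), Krt7 spans chr15:101412403-101427806 on the plus strand, Krt5 chr15:101707069-101712905 on the minus strand, Krt8 chr15:101996711-102004342 on the minus strand and Krt18 chr15:102028216-102032026 on the plus strand. Krt18 is a type I gene inside the type II cluster, 23.87 kb from Krt8. The other type I members, Krt19 at chr11:100140810-100145926 and Krt14 at chr11:100203162-100207510, are on the minus strand of chromosome 11. An antisense gene overlaps Krt7 and a long non-coding gene on the other strand overlaps Krt8, and Krt14 has the near-identical paralogs Krt16 and Krt17. How such reads were assigned is not given in the sources used here, so these values are uncertain to that extent.

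Krt19 had no promoter window in the sources used here, and that of Krt14 lay inside its gene span, so neither is shown. The promoters of Krt7, Krt8 and Krt18 are shown because these 3 genes differed between populations in the same order, as Krt19 did, with that of Krt5, which was near 0, for contrast. Each is the window from 250 bases before to 50 bases after the start, from RefSeq on GRCm38.p6, 5′ to 3′ on the gene's own strand, and capitals mark the motif matches. The windows are chr15:101412153-101412452 (plus strand), chr15:102004293-102004592 (minus), chr15:102027966-102028265 (plus) and chr15:101712856-101713155 (minus).
Krt7: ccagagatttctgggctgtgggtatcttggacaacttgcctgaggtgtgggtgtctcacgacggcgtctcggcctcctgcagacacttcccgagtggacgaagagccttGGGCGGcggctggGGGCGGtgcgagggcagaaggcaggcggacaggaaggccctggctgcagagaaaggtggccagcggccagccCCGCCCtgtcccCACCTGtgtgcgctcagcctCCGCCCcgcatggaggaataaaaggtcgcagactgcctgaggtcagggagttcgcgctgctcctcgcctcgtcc
Krt8: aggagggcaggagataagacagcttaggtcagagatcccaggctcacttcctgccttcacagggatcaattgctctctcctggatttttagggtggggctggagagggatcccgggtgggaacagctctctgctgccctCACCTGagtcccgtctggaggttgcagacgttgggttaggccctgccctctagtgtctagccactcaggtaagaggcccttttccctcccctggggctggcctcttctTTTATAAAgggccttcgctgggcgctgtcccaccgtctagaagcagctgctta
Krt18: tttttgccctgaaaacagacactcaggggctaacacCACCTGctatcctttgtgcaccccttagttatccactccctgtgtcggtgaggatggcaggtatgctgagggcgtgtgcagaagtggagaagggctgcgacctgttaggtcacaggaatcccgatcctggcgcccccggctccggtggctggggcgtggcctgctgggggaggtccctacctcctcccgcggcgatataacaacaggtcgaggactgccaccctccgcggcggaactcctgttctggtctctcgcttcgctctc
Krt5: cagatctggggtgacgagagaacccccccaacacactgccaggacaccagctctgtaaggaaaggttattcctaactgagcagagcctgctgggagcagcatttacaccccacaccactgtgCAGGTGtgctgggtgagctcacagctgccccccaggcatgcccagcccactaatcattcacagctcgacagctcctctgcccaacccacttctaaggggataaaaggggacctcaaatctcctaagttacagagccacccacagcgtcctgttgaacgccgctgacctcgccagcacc
Letters were searched on both strands. The E-box CAGGTG was found once in each of the 4 windows, against 20.2% of 32851 promoters of this length. The GC box GGGCGG was found 4 times in Krt7 and in none of the other windows, against 35.7% of promoters. The exact TATA box letters TATAAA were found only in Krt8, against 13.6% of promoters. They were 2 overlapping matches on opposite strands, at -3 and -1 from the start used here. Variants of the letters were not searched. Neither the AP-1 letters TGANTCA (7.81% of promoters) nor the TEAD letters GGAATG (14.7%) were found in these 4 windows.

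The libraries held 9.20 to 27.5 M reads, with a median of 21.6 M, and SMCs replicate 3 (9.20 M) and APCs replicate 4 (11.2 M) were the shallowest. The summed level of 16 mesothelial markers was 184060 to 193260 normalized counts in MLCs, 19876 to 29222 in SMCs, 6515 to 7295 in FIPs and 8119 to 8648 in APCs, and none of the 16 was at 0 throughout any population. Acta2, the actin of smooth muscle, had 1143 to 1627 normalized counts in MLCs, 2885 to 5859 in SMCs and 211 to 258 in FIPs. In APCs it had 2388 in replicate 4 and 156 to 221 in the others, so that results against APCs are also given without that library. In bulk RNA, fewer cells of a type and less RNA per cell cannot be told apart.

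All 4 simple epithelial keratins were highest in MLCs, followed by SMCs, FIPs and APCs. Values are normalized counts, read counts divided by 1 factor per library. Krt19, the smallest type I keratin, had 17184, 18199, 17133 and 18528 in MLCs, 1434, 1344, 1734 and 1058 in SMCs, 53.4, 49.9, 64.0 and 72.5 in FIPs, and 8.45, 6.04, 17.9 and 55.3 in APCs. The MLCs libraries lay within a narrow range far above the rest, the SMCs libraries were all above the FIPs libraries, and APCs replicate 4 lay inside the range of FIPs. Krt7 had 7613, 7810, 7479 and 7723 in MLCs, 440, 470, 453 and 300.4 in SMCs, 21.8, 10.2, 11.5 and 25.4 in FIPs, and 6.76, 2.01, 7.86 and 17.3 in APCs. Here too only FIPs and APCs overlapped, through APCs replicate 4.

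Krt8 had 5290, 5361, 5189 and 6207 in MLCs, 196, 207, 248 and 163 in SMCs, 32.6, 49.9, 18.1 and 55.3 in FIPs, and 6.76, 0, 4.29 and 1.73 in APCs. No populations overlapped in this gene. Its partner Krt18 had 1225, 1313, 1297 and 1530 in MLCs, 47.4, 28.8, 36.3 and 17.4 in SMCs, 8.90, 8.32, 2.86 and 12.7 in FIPs, and 0.845, 0, 0.715 and 0 in APCs. Again no populations overlapped, but the APCs values rest on 2 reads in total.

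The basal keratins parted from each other. Krt14 had 532, 424, 445 and 682 in MLCs, 4.21, 2.13, 0 and 6.13 in SMCs, 1.98, 1.85, 2.86 and 2.72 in FIPs, and 0, 0, 0 and 3.46 in APCs. It was high in MLCs alone, and SMCs, FIPs and APCs overlapped one another at 12, 10 and 2 reads in all. Krt5, the partner of Krt14 in basal cells, had 5.86, 1.69, 1.48 and 1.76 in MLCs, from 13 reads in all, and 2.97, 0, 0 and 0 in FIPs, from 3 reads in 1 library. It was at 0 in all 4 libraries of SMCs and of APCs, where 3 reads over the population, the limit a count of 0 allows, would be a mean of 0.900 in SMCs and 0.722 in APCs.

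**Figure D1:**
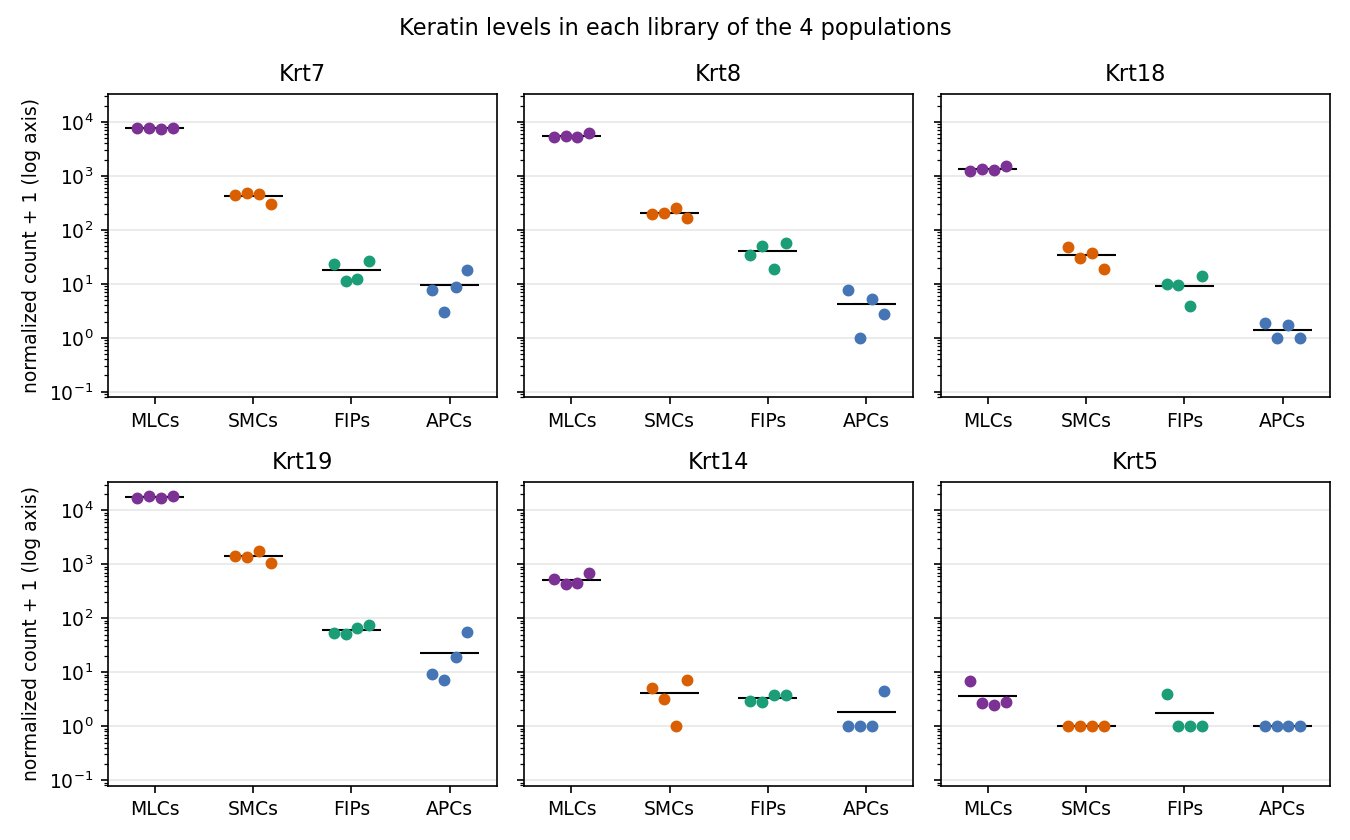
Normalized count plus 1 (log axis) of each keratin in each library of MLCs, SMCs, FIPs and APCs, with points for libraries and a line at the population mean plus 1. The simple epithelial keratins step down from MLCs to APCs, Krt14 is high in MLCs alone (424 to 682), and Krt5 stays at or below 5.86 everywhere.

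The 6 pairs of populations were compared with limma on log2(value + 1), and calls needed an adjusted p below 0.05 together with a change of 1 or more in log2, up or down. Genes with at least 10 in at least 4 libraries were tested, 15024 in all. Of the 6 members, 5 passed. Krt14 passed only through MLCs, so that it had to differ there and its differences from MLCs support nothing. Krt5 did not pass and was not tested. With no filter it was called higher in MLCs too, which brought the count to 6 members against each of the other populations. That call rests on 13 reads in MLCs, 7 of them in replicate 1, and MLCs and FIPs overlapped in Krt5, so nothing is drawn from it.

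Against APCs, 5 of the 6 members were called higher in MLCs. Without Krt14, which had to differ, these were Krt7, Krt8, Krt18 and Krt19. Of all genes tested, 17.7% were called higher in MLCs and 11.8% higher in APCs. The log2 fold change was 10.72 ± 0.44 (SE) for Krt8, 10.09 ± 0.40 for Krt19, 9.93 ± 0.37 for Krt7 and 9.97 ± 0.36 for Krt18. Their limma adjusted p ran from 4.41e-15 for Krt18 to 3.16e-14 for Krt8. Krt14 stood at 8.46 ± 0.55, which is a description only. In each of the 5 genes every MLCs library lay above every APCs library, which the filter had fixed for Krt14. The share of all genes that separated in this way is not given here, so nothing is drawn from it. Because APCs held so few reads of Krt18, the fold is better given with its counting error: 2778-fold, with an exact 95% interval of 769 to 22941. For Krt14 it was 1073-fold, with an interval of 297 to 8861. Such intervals cover counting error only. Without APCs replicate 4 the log2 fold changes of the 5 genes were 9.001 to 10.68.

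Against FIPs, 5 members were called higher in MLCs, with 18.6% of all genes called higher in MLCs and 12.5% higher in FIPs. Krt14, which had to differ, is among the 5. Krt7 and Krt19, the keratins added in ducts and mesothelium, had log2 fold changes of 8.81 ± 0.37 (SE) and 8.20 ± 0.40. The Krt8 and Krt18 couple came to 7.22 ± 0.44 and 7.32 ± 0.36, and Krt14 to 7.27 ± 0.55. Adjusted p from limma lay between 5.02e-14 and 1.54e-11 for the members other than Krt14. With all libraries scaled to the same total, the median of all genes shifted by 0.33 in this pair, 71.4% of calls were higher in MLCs, against 59.8% as deposited, and the 5 keratin calls held.

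Against SMCs, 5 members were again called higher in MLCs, with 14.4% of all genes called higher in MLCs and 13.5% higher in SMCs. Krt14, which had to differ, is again among the 5. The log2 fold change was 5.41 ± 0.36 (SE) for Krt18, 4.76 ± 0.44 for Krt8, 4.22 ± 0.37 for Krt7 and 3.69 ± 0.40 for Krt19. The limma adjusted p of these members ran from 9.22e-11 to 1.22e-07. Krt14 stood at 7.29 ± 0.55, which is a description only. For Krt5 the 13 reads in MLCs against 0 in SMCs gave a ratio of 2.97 with SMCs set at 3 reads. This ratio leaves out the counting error of the 13 reads, of which 7 came from MLCs replicate 1.

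SMCs carried more of the simple epithelial keratins than either progenitor, while Krt14 did not pass the thresholds. Of the 6 members, 4 were called higher in SMCs than in APCs, with 13.5% of all genes called higher in SMCs and 3.79% higher in APCs. Krt19 was higher by 6.39 ± 0.40 (SE) on the log2 scale, Krt8 by 5.96 ± 0.44, Krt7 by 5.71 ± 0.37 and Krt18 by 4.56 ± 0.36, with limma adjusted p from 1.20e-10 to 3.24e-09, and without APCs replicate 4 these were 6.99, 5.87, 6.12 and 4.425. For Krt18 the counted ratio was 66.0-fold, with an exact 95% interval of 17.8 to 552. Krt14 was at a log2 fold change of 1.18 ± 0.55 (adjusted p = 0.0756 by limma); it was called without APCs replicate 4 (1.72, adjusted p = 0.00652) and without SMCs replicate 3 (1.75, adjusted p = 0.00452), on 12 and 2 reads.

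Against FIPs, 4 members were called higher in SMCs, with 13.3% of all genes called higher in SMCs and 4.6% higher in FIPs. Krt7 and Krt19 were higher by 4.59 ± 0.37 (SE) and 4.51 ± 0.40 on the log2 scale, with limma adjusted p of 3.92e-09 and 1.41e-08. Krt8 and Krt18 were higher by 2.46 ± 0.44 and 1.92 ± 0.36, with adjusted p of 0.000103 and 0.00017. Krt14 was at -0.02 ± 0.55 (adjusted p = 0.982). With quantile normalization 56.1% of all calls against FIPs and 58.2% of those against APCs were higher in SMCs, where the deposited scale gave 74.3% and 78.0%. The keratin calls held.

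FIPs held more of the simple epithelial keratins than APCs, at levels well under those of SMCs. Of the 6 members, 4 were called higher in FIPs, with 5.2% of all genes called higher in FIPs and 5.22% higher in APCs. Krt8 rose by 3.50 ± 0.44 (SE) on the log2 scale, with a limma adjusted p of 2.35e-06, and Krt18 by 2.65 ± 0.36 (adjusted p = 6.22e-06), from 35 reads against 2, a ratio of 17.1 with an exact 95% interval of 4.40 to 147. Krt19 rose by 1.89 ± 0.40 (adjusted p = 0.000772). Krt7 was called at 1.12 ± 0.37 (adjusted p = 0.0215), and the call was lost with libraries scaled to equal totals (0.89, adjusted p = 0.0525), with edgeR on reads (0.75, adjusted p = 0.22), with DESeq2 (0.76, adjusted p = 0.0866), and without FIPs replicate 1, FIPs replicate 4 or APCs replicate 2 (0.98, 0.90 and 0.66). Krt14 was at 1.19 ± 0.55 (adjusted p = 0.0906) and was called without APCs replicate 4 (1.73, adjusted p = 0.00787) or without SMCs replicate 3 (adjusted p = 0.034).

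Without APCs replicate 4, the log2 fold changes between FIPs and APCs were 3.42 for Krt8, 2.51 for Krt18, 2.48 for Krt19 and 1.52 for Krt7. Equal totals shifted the median of all genes by -0.24 in this pair, and 32.5% of calls were then higher in FIPs, against 49.9% as deposited. With a pseudocount of 8 in place of 1, the keratins called were 2, since Krt18 (0.91) and Krt7 (0.64) fell under the fold threshold.

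**Figure D2:**
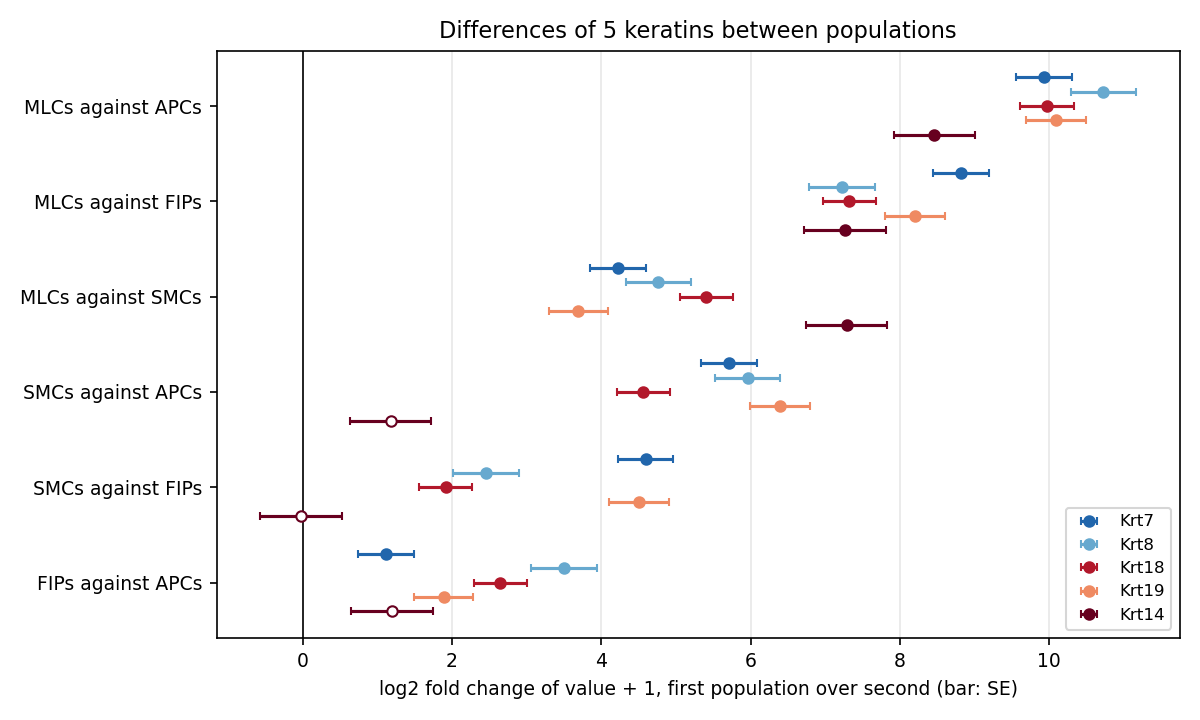
Log2 fold change of value plus 1, first population over second, for the 5 keratins tested in the 6 pairs of populations, with bars for the SE and open symbols for differences that were not called. Krt14 sits near the other keratins where MLCs are compared with FIPs or APCs, above them against SMCs (7.29), and below them where SMCs are compared with FIPs (-0.02) or APCs (1.18).

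Values of other epithelial genes in FIPs, chosen after they were seen, stand here beside those of the keratins. Beside Krt8 (32.6, 49.9, 18.1 and 55.3 in FIPs replicates 1 to 4), Dsp had 32.6, 38.8, 20.1 and 49.9, against 1.69, 1.01, 0 and 1.73 in APCs. Epcam, an adhesion protein of glandular epithelium, had 33.6, 8.32, 1.91 and 16.3 in FIPs, against 1.69, 3.02, 0 and 0 in APCs. Crisp1, a secreted protein of the epididymis, had 42.5 in FIPs replicate 1, 0.925 to 2.72 in the other FIPs libraries and 0 in all APCs libraries. Krt8, Krt18 and Dsp were lowest in FIPs replicate 3 and highest in replicate 4, whereas Epcam and Crisp1 were highest in replicate 1.

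Whole marker lists also differed between FIPs and APCs, where 5.2% of all genes were called higher in FIPs and 5.22% higher in APCs. Of 16 mesothelial markers 7 were called higher and 1 (Cldn15) lower in FIPs, with a median log2 fold change of 0.67 against 0.01 over all genes. Of 11 glandular epithelial markers, 7 were tested and 3 (Epcam, Cdh1 and Cldn3) were called higher in FIPs, and their sum was 35.3 to 114 in FIPs against 20.1 to 27.9 in APCs. The sum of 13 epididymal epithelial markers was 21.3 to 73.2 in FIPs and 9.06 to 19.3 in APCs, with 8 of the 13 at 0 in all FIPs libraries and 9 in all APCs libraries. Of the 13, 2 were tested, Crisp1 and Rnase10, and both were called higher in FIPs. Rnase10 had a mean of 24.1 in FIPs and 8.22 in APCs. The part of other cells in the keratin levels of FIPs was not tested.

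The keratins were then set against the mesothelial markers, as the level in each population in percent of the MLC level. In SMCs, Krt19 was at 7.84%, Krt7 at 5.43%, Krt8 at 3.69%, Krt18 at 2.42% and Krt14 at 0.599%, while the 16 markers lay between 1.57% and 33.1% with a median of 8.73%. The upper markers, such as Wt1 and Gata6, were also present in FIPs and APCs. Of the 16, 10 were at most 1% of the MLC level in both FIPs and APCs (a limit chosen after the values were seen), and these lay between 1.57% and 13.4% in SMCs, with a median of 7.67%. All keratins but Krt14 lay inside that range.

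In FIPs, Krt8 was at 0.708% of the MLC level, Krt18 at 0.611%, Krt14 at 0.452%, Krt19 at 0.338% and Krt7 at 0.225%, against 0.136% to 0.272% for the 10 markers. Only Krt7 lay within the range of the 10 markers, and the other 4 lay above it. The 10 were chosen for low levels in FIPs and APCs, so their ranges there depend on that choice. Over all 16 markers the range was 0.136% to 32.2% in FIPs, which holds each of these keratins, and 0.0669% to 33.7% in APCs. In APCs, Krt14 was at 0.166%, Krt19 at 0.123%, Krt7 at 0.111%, Krt8 at 0.0580% and Krt18 at 0.0291%, against 0.0669% to 0.157% for the 10 markers. There Krt14, from 2 reads in replicate 4, lay above the 10 markers, and Krt8 and Krt18 lay below all 16.

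**Figure D3:**
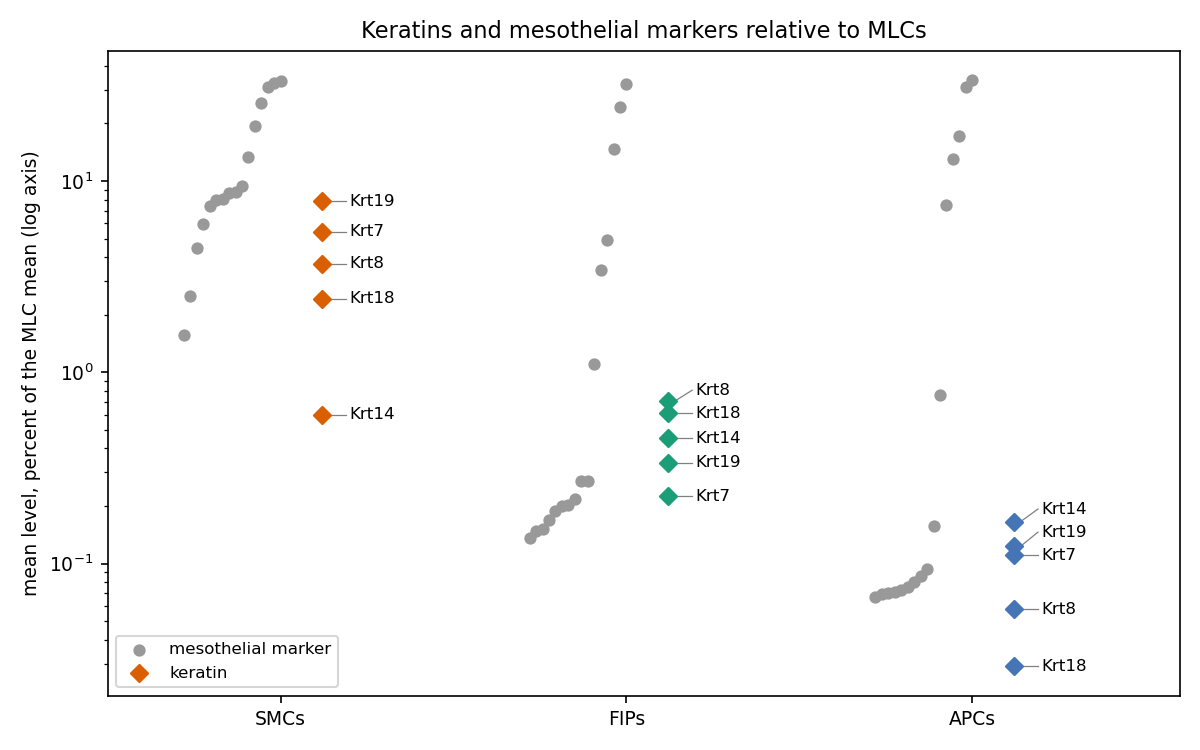
Mean level of the 5 keratins other than Krt5 (coloured diamonds) and of the 16 mesothelial markers (grey points, in order of level) in SMCs, FIPs and APCs, in percent of the MLC mean (log axis). In SMCs the keratins lie at 0.599% to 7.84%, with Krt14 below every marker, and in FIPs at 0.225% to 0.708%.

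Ratios within a library are free of its scaling factor, apart from the added 1, and 9 of them were compared between MLCs and SMCs by a two-sided exact permutation test of 4 against 4 libraries, whose smallest possible p is 0.0286. The log2 ratio of Krt19 to the summed markers was -3.42 ± 0.07 (SD, n = 4) in MLCs and -4.13 ± 0.07 in SMCs, a difference of 0.71. For Krt7 the difference was 1.24, for Krt8 1.78 and for Krt18 2.42, so that each of these 4 keratins was lower relative to the markers in SMCs, with no overlap between libraries (exact permutation p = 0.0286 each, adjusted p = 0.0367 over the 9). The difference of 4.30 for Krt14 is a description only, since it passed the filter only through MLCs. With the 10 markers alone as denominator the differences were 0.69 for Krt7, 1.23 for Krt8 and 1.87 for Krt18, each with an adjusted p of 0.0367, but 0.16 for Krt19 (adjusted p = 0.114, exact permutation test). Ratios with Krt5 rest on the value added to its 0 reads in SMCs and are not read here.

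The balance of the 2 keratin types also differed. Levels between genes were compared per kb of transcript, where the transcript of Krt7 is the longest at 4.09 kb and the others run from 1.44 to 2.20 kb. The summed type II members were 0.375 ± 0.0074 of the summed type I members per kb in MLCs and 0.228 ± 0.0179 in SMCs (SD, n = 4 each). The log2 ratio of the summed counts, not divided by length, differed by 0.63 between MLCs and SMCs, with no overlap (exact permutation p = 0.0286, adjusted p = 0.0367). In FIPs the ratio per kb ranged from 0.273 to 0.726 and in APCs from 0.128 to 0.858, on far fewer reads. These ratios leave out all other keratins. The members were 98.2% of keratin RNA per kb in MLCs and 78.9% in SMCs, but 31.3% in FIPs and 17.2% in APCs. They are thus not the balance of all keratins, least of all in FIPs and APCs.

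Krt19 held the largest share of the 6 keratins per kb in every library of MLCs, SMCs and FIPs. Per kb, it was 65.6% ± 0.93 (SD, n = 4) of the 6 keratins in MLCs, 79.3% ± 1.19 in SMCs and 55.7% ± 11.1 in FIPs. Krt8 came next in MLCs and FIPs, with 16.4% ± 0.69 in MLCs, 9.38% ± 0.53 in SMCs and 27.9% ± 9.20 in FIPs. Krt7 had 10.9% in MLCs and 9.15% in SMCs, where it overlapped Krt8 and was above it in 2 of 4 libraries. Without the division by length Krt7 exceeded Krt8 in MLCs, so their order there depends on the annotated length of Krt7.

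Krt8 exceeded its partner Krt18 by 3.02 ± 0.10 times per kb in MLCs, 5.06 ± 1.59 times in SMCs and 3.74 ± 0.94 times in FIPs (SD, n = 4 each). Between MLCs and SMCs the log2 ratio differed by -0.64 (exact permutation p = 0.0857, adjusted p = 0.0857), and the libraries overlapped, since SMCs replicate 1 stood at 3.03 times. The members together held 0.180% of all normalized counts in MLCs, 0.0104% in SMCs, 0.000555% in FIPs and 0.00018% in APCs.

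**Figure D4:**
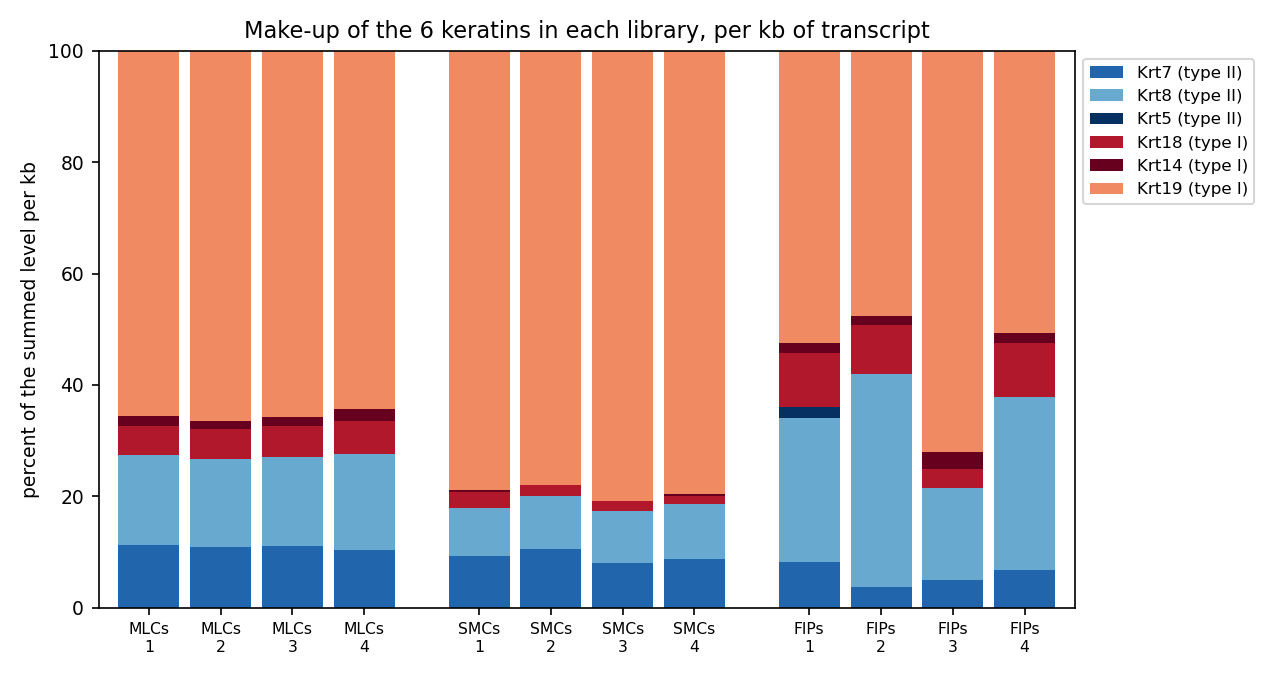
Share of each keratin in the summed level of the 6 keratins per kb of transcript, in percent, for each library of MLCs, SMCs and FIPs, with type II keratins in blue and type I keratins in red and orange. Krt19 takes 64.3% to 66.5% in MLCs, 77.9% to 80.7% in SMCs and 47.6% to 72.1% in FIPs; APCs are left out because their sums rest on few reads.

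The genes most like each keratin were taken by the smallest root mean square difference between log2(value + 1) levels, each centred on its own mean, over the 16 libraries. For Krt7 these were Bnc1 (0.32), a transcription factor of mesothelium, Sorcs1 (0.48) and Gpm6a (0.49), with Krt19 at 0.48. For Krt19 they were Lrp2 (0.46), an endocytic receptor, Bnc1 (0.48) and Upk3b (0.54), a mesothelial membrane protein. For Krt8 they were Dmkn (0.83), Msln (0.87), which codes for mesothelin, and Esyt3 (0.93), and its partner Krt18 was nearer, at 0.68.

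Among the genes outside the family most like Krt18 were Matn4 (0.76) and Pdzrn4 (0.78). Krt14 had Fxyd3 (0.85), Tm4sf5 (1.02) and Agr2 (1.06) as its nearest genes, and no member within 1.56. The likeness is a description over libraries that share 4 populations.

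The other keratins filled in what the 6 members left. The table held 54 keratin genes, 27 on chromosome 11 and 27 on chromosome 15. Of the 48 that are no members, 9 were tested, 39 were not (the highest mean among them was 5.61) and 3 were at 0 in every library. Between MLCs and SMCs, 6 of the 9 tested were called higher in MLCs (Krt80, Krt15, Krt87, Krt222, Krt17 and Krt88) and 2 higher in SMCs (Krt10 and Krt20), beside 14.4% and 13.5% of all genes. Of the 6, Krt15, Krt87, Krt17 and Krt88 passed the filter only through MLCs, so that they had to differ there and their differences from MLCs support nothing.

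Krt20, a type I keratin of intestinal and urothelial surface cells, ran opposite to the members in this pair. It had 4.56 ± 2.68 (SD, n = 4) in MLCs and 332 ± 76.0 in SMCs, a log2 fold change of -5.98 ± 0.49 (SE; limma adjusted p = 2.08e-09). In FIPs it had 49.5 ± 5.92, and in APCs 14.4 ± 18.2, where the highest library had 41.5. Krt20 was called higher in SMCs than in FIPs (2.70, adjusted p = 0.000118 by limma) and higher in FIPs than in MLCs, where MLCs over FIPs was -3.29 (adjusted p = 6.67e-06).

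Krt15, a type I keratin of basal cells, had 148 ± 47.0 (SD, n = 4) in MLCs, 5.83 ± 6.10 in SMCs, 0.495 ± 0.989 in FIPs and 0 in all libraries of APCs. Its log2 fold change between MLCs and SMCs was 4.74 ± 0.51 (SE). Krt87 had 113 ± 6.98 in MLCs and 5.84 ± 4.99 in SMCs, and was at 0 in all libraries of FIPs and APCs. Krt17, a paralog of Krt14, had 32.9 ± 8.27 in MLCs and 0 in all 12 other libraries.

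Krt80 had 150.4 ± 17.6 in MLCs, 23.8 ± 11.04 in SMCs, 27.4 ± 7.26 in FIPs and 4.40 ± 0.85 in APCs (SD, n = 4 each), and was called higher in MLCs than in SMCs at 2.73 (limma adjusted p = 1.33e-07). Krt222 had 30.2 ± 6.61 in MLCs, 12.9 ± 6.08 in SMCs, 15.3 ± 1.34 in FIPs and 4.95 ± 2.93 in APCs. Krt10, a type I keratin of suprabasal epidermis, was the most even, with 74.5 ± 17.7 in MLCs, 156 ± 29.9 in SMCs, 176 ± 12.8 in FIPs and 107 ± 20.7 in APCs.

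The 6 members were 98.2% ± 0.27 (SD, n = 4) of all keratin RNA per kb in MLCs, 78.9% ± 5.77 in SMCs, 31.3% ± 4.78 in FIPs and 17.2% ± 12.3 in APCs. Krt20 took 0.0135% ± 0.0078 in MLCs and 12.7% ± 4.37 in SMCs. Krt10 took 38.1% ± 4.26 in FIPs and 55.4% ± 17.7 in APCs.

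**Figure D5:**
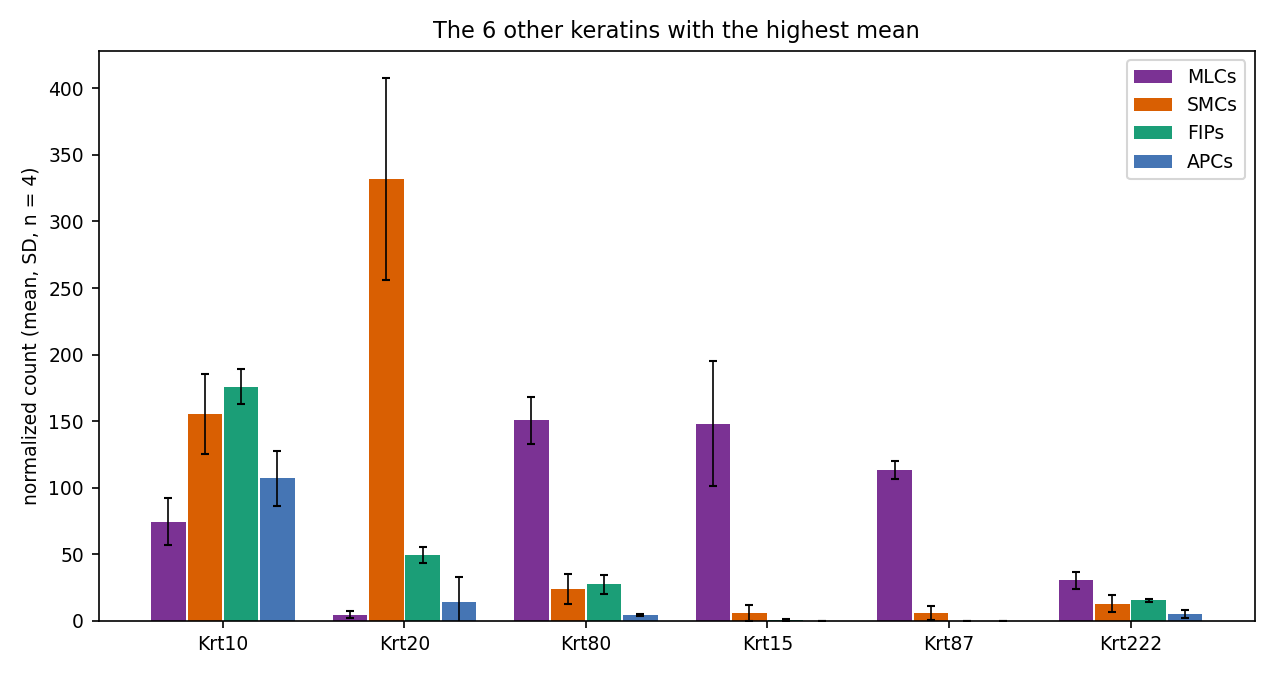
Mean normalized count of the 6 keratins outside the members with the highest mean over all libraries, in MLCs, SMCs, FIPs and APCs, with bars for the SD over 4 libraries. Krt20 is near 0 in MLCs (4.56) and highest in SMCs (332), while Krt80, Krt15 and Krt87 are highest in MLCs.

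Desmosomes tie keratin filaments to cell junctions. Of 19 desmosome and keratin linker genes 18 were tested, and 10 were called higher and 1 (Dsc2) lower in MLCs than in SMCs, beside 14.4% and 13.5% of all genes. Of the 10, Pkp1, Pkp3, Dsg2 and Dsc3 passed the filter only through MLCs and support nothing, which leaves 6. Dsp had 901 ± 77.0 (SD, n = 4) in MLCs and 50.4 ± 11.3 in SMCs, a log2 fold change of 4.16 ± 0.30 (SE; limma adjusted p = 3.61e-10). Ppl and Evpl, which code for the desmoplakin relatives periplakin and envoplakin, were higher in MLCs by 3.39 ± 0.14 and 3.37 ± 0.23 on the log2 scale. Fam83h, whose product binds keratin filaments, was higher by 2.62 ± 0.21.

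The same list had 15 of 18 called higher and 0 lower in MLCs than in APCs, and 14 higher and 1 lower in MLCs than in FIPs, and both counts hold the same 4 genes, which leaves 11 and 10. Between SMCs and APCs 12 were called higher and 0 lower, and between SMCs and FIPs 8 higher and 0 lower. In FIPs, Dsp, Dsg2, Dsc2 and Eppk1 were called higher than in APCs and Fam83h lower. Each of these counts is to be read against the share of all genes called in the same pair. For MLCs the shares were 17.7% higher and 11.8% lower against APCs, and 18.6% and 12.5% against FIPs. For SMCs they were 13.5% and 3.79% against APCs, and 13.3% and 4.6% against FIPs. For FIPs against APCs they were 5.2% and 5.22%.

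Hemidesmosomes join the filaments of basal cells to the basement membrane. Of their 9 genes, 5 were called higher in MLCs than in SMCs, Itgb4 and Cd151 among them, and 1, Col17a1, lower, with a median of 1.82. Of all genes tested, 14.4% were called higher and 13.5% lower in this pair. Itgb4, the integrin chain that plectin holds, had 638 ± 40.3 in MLCs and 88.8 ± 21.7 in SMCs (SD, n = 4 each). Col17a1, a collagen of the hemidesmosome, had 51.4 ± 5.05 in MLCs and 188 ± 21.9 in SMCs, a log2 fold change of -1.85 ± 0.12 (SE; limma adjusted p = 1.22e-10).

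Of 10 markers of stratified basal epithelium, 7 were tested, and 5, Itgb4 among them, were called higher and 1 (Col17a1) lower in MLCs than in SMCs, where 14.4% of all genes were higher. Of the 5, Dsc3 and Pkp1 passed the filter only through MLCs, which leaves 3. Trp63, the transcription factor that defines basal cells and drives Krt5 and Krt14 there, did not pass the filter, with 4.54 ± 3.35 (SD, n = 4) in MLCs, 13.2 ± 5.75 in SMCs, 2.91 ± 4.20 in FIPs and 4.61 ± 0.57 in APCs. Krt14 in MLCs stood beside little Krt5 and little Trp63.

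Of 11 glandular epithelial markers 7 were tested, and 6 were called higher in MLCs than in SMCs, 3 of which (Epcam, Pax8 and Spint1) passed the filter only through MLCs. Of all genes tested, 14.4% were called higher in MLCs in this pair. Cldn3, a tight junction protein, had 541 ± 54.8 in MLCs and 93.5 ± 29.5 in SMCs, and Epcam had 81.6 ± 22.1 in MLCs and 7.69 ± 8.45 in SMCs (SD, n = 4 each). The sum of the epididymal markers was 10.99 to 62.5 in MLCs and 12.8 to 47.0 in SMCs, where 12 and 11 of the 13 stayed under 10 in all libraries. Crisp1 had 11.7, 1.69, 32.5 and 51.9 in MLCs replicates 1 to 4, against 0, 1.07, 0 and 3.07 in SMCs, a log2 fold change of 3.20 ± 0.92 (SE; limma adjusted p = 0.00507), and it too passed the filter only through MLCs. Rnase10, the only other epididymal marker tested, went the other way, with 5.30 ± 1.38 in MLCs and 10.5 ± 5.19 in SMCs (SD, n = 4 each). It was not called in this pair. Crisp1 was highest in MLCs replicate 4, where Krt8, Krt18, Krt19 and Krt14 were also highest. The sum of the mesothelial markers was highest there too, while Krt7 was highest in replicate 2 and Epcam in replicate 3. The part of other cells in the keratin levels of MLCs was not tested.

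Of 18 regulators known from epithelia, transcription factors together with splicing regulators such as Esrp2, 7 were tested, and 5 (Grhl1, Ovol1, Esrp2, Bnc1 and Wt1) were called higher and 0 lower in MLCs than in SMCs, of which Grhl1 and Esrp2 passed the filter only through MLCs. The shares of all genes called in this pair were 14.4% higher and 13.5% lower. Bnc1 had 4401 ± 301 in MLCs and 352 ± 129 in SMCs (SD, n = 4 each). Klf5 did not pass the fold threshold, with 518 ± 28.7 in MLCs and 950.3 ± 148 in SMCs.

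The keratins stood beside other intermediate filaments in the same cells. Of 14 such genes 13 were tested, and 5 (Gfap, Nefh, Synm, Sync and Lmnb1) were called higher and 3 (Nes, Nefl and Nefm) lower in MLCs than in SMCs, of which Gfap and Nefh passed the filter only through MLCs. The shares of all genes called were 14.4% higher and 13.5% lower. Vim, the filament of mesenchymal cells, had 33852 ± 1487 in MLCs, 24343 ± 1582 in SMCs, 47185 ± 2336 in FIPs and 47774 ± 2647 in APCs (SD, n = 4 each). Nes, which codes for nestin, had 176 ± 18.97 in MLCs and 1624 ± 335 in SMCs, a log2 fold change of -3.18 ± 0.12 (SE; limma adjusted p = 2.40e-14).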

How the data were processed

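Total RNA of freshly sorted cells was sequenced. The authors deposited 1 table of a normalized signal, in which the reads of a gene are divided by a factor of the library. DESeq2 1.6.3, featureCounts 1.4.6, HISAT2 2.0.1 and Trim Galore 0.4.1 are listed in the submitters' processing notes, as are the builds mm10 and GRCm38, without saying what each was used for. For the annotation, the strand setting and the handling of reads with several matches, the choice is not given in the sources used here. The 4 columns headed SMLCs were taken as SMCs by their numbers. All values above 0 (100%) were whole multiples of 1 step per library within 0.01, which gives the reads behind each value. Rows without a symbol, 1275 in all, held 0.0812% to 0.135% of the values of each library and were kept under their Entrez number. Within a population the chi-square per degree of freedom between libraries was 4.96 to 27.0, so none was counted as a copy.

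Populations were compared with limma 3.58.1 under R 4.3.3 (lmFit, then eBayes with trend) on log2(value + 1) values, with 16 libraries in 1 model, two-sided, with Benjamini-Hochberg adjustment within each pair over all 15024 genes tested; the added 1 understates the fold of low genes. It was tested on simulated data. The alternatives were other pseudocounts, filters and scalings, limma without a trend, a replicate block, each library left out, and edgeR 4.0.16 and DESeq2 1.42.0 on the recovered reads of 14 libraries. FIPs replicate 1 and APCs replicate 2 were kept out of these count tests because their step is within 2% of 1. Values per kb used the GENCODE M21 transcript that is paired with the RefSeq transcript.

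The members and gene lists were chosen with earlier results of these data known. The text names all members, the 3 genes most like each tested member, up to 4 genes of a list with the smallest adjusted p between MLCs and SMCs, and the 6 other keratins with the highest mean. Acta2, Trp63, Vim, Krt17, Epcam and Crisp1 in FIPs, and the genes listed beside counts, were named after their values were seen, and some genes within the rule are not reported here.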

Additional observations from a re-analysis of the deposited data

Results flagged for a closer look

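In 4 of 22 groups of 4 libraries, 1 library lay farther from the others than Dixon's critical value of 0.829 allows. Chance gives this in about 1 in 20 groups of values with a normal distribution. That rate does not hold for genes with few reads, where 1 library above 0 among libraries at 0 is always flagged. Krt8 had 6207 normalized counts in MLCs replicate 4 and 5189 to 5361 in the other MLCs libraries, just past that value (0.83). Krt14 had 3.46 in APCs replicate 4, from 2 reads, and 0 in the other APCs libraries. Krt5 had 5.86 in MLCs replicate 1, from 7 reads, and 1.48 to 1.76 in the others. Krt5 had 2.97 in FIPs replicate 1, from 3 reads, and 0 in the others. The last of these libraries was also the one with the highest Crisp1 and Epcam among FIPs, and APCs replicate 4 the one with the highest Acta2 and Krt20 among APCs; whether this bears on the keratin reads was not tested.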

How the results depend on the processing

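Of 810 keratin fold changes recomputed under the alternatives, 783 kept their direction and side of the thresholds, and every count of all genes called stayed within 1.5 times; edgeR called 4396, 4700, 4259, 2442, 2747 and 1499 genes in the 6 pairs in the order given in the report, against 4440, 4671, 4185, 2590, 2693 and 1566 by limma. The keratins called between FIPs and APCs were 4 as reported, 2 with a pseudocount of 8, 3 with edgeR, DESeq2 or equal totals, and 3 to 5 when a library was left out. Between SMCs and APCs they were 4, 4 to 5 when a library was left out, and 5, with Krt14, by DESeq2 (2.48, adjusted p = 0.0447) and without APCs replicate 4 and SMCs replicate 3 together (2.29, adjusted p = 1.86e-05 by limma). Krt14 between SMCs and FIPs, at -0.02, changed sign with a pseudocount of 8 (0.072), equal totals (0.13), edgeR (0.50), DESeq2 (0.53) and without APCs replicate 4 and SMCs replicate 3 together (0.56), and ranged from -0.389 to 0.555 when 1 library was left out; it was called in none of these. The log2 ratio of Krt5 to the mesothelial markers, at -1.24 between MLCs and SMCs, was 1.58 with a pseudocount of 0.1, -2.58 with 8, -1.63 with quantile normalization and -1.79 with the 10 markers, because Krt5 was at 0 in SMCs. The ratio of Krt5 to Krt14, at -5.54, rests on the same added value. The ratio of Krt8 to Krt18, at -0.64, passed with quantile normalization (-0.89, adjusted exact permutation p = 0.0286), and that of Krt19 to the markers, at 0.71, did not pass with the 10 markers (0.16). The causes were not tested.

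Deviations of same-numbered libraries correlated from -0.034 to 0.171, above 0 in 23 of 24 pairs and above 0.1 in 6, against 1 of 72 other pairs above 0.1, and 9 of 16 libraries correlated best with their own number. This is a hint from the data, not the design, and since not every pair passed 0.1 the numbers were not taken to pair the samples. With the replicate number as a block, the keratins called were 5 between FIPs and APCs and 5 between SMCs and APCs, where Krt14 joined (adjusted p = 0.0492 and 0.0401 by limma), and no other keratin call changed. Equal totals or quantile normalization moved the median of all genes by over 0.1 in 5 pairs: equal totals by 0.33 (MLCs against FIPs), 0.11 (MLCs against SMCs), 0.22 (SMCs against FIPs) and -0.24 (FIPs against APCs), and quantile normalization by -0.12 (MLCs against APCs and against FIPs). Depth limits Krt5 in every population, Krt14 outside MLCs and Krt18 in APCs.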
